A study of Homo sapiens with 3 samples.

Results

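The cancer-testis antigen families were followed in YB5 cells with 56 array probes, taken by gene name. These families, and the gene lists set beside them, were chosen with earlier results of these data known. A probe was a member if its name in the array files began with MAGEA, MAGEB, MAGEC, GAGE, XAGE, PAGE, SSX, SPANX or BAGE, or was CTAG1A, CTAG1B, CTAG2 or PRAME. These 56 probes carried 50 gene names and made up 65 of 43376 gene spots, out of 41000 gene probes on the array. The prefix SSX also took SSX2IP, a gene named for a protein that binds SSX2 and not itself a cancer-testis gene, so counts below are for the other 55 probes and 49 names. No probe was named CTAG1B.

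YB5 is a clone of the SW48 colon cancer cell line with 1 copy of a GFP reporter, whose CMV promoter is silenced by CpG methylation. All cells on all arrays carried this reporter, and the line is 1 clone. Cells received decitabine at 25 nM, carboplatin at 20 µM, or both at these doses, on days 1 to 4, and RNA was taken on day 6. Each treatment was measured on 1 dual-channel array, with RNA of treated cells in Cy3 and RNA of DMSO control cells, titled untreated, in Cy5. The 3 arrays lay on 1 slide, without a dye swap, and with 1 array per treatment no difference has a replicate check or a p-value. Decitabine is a cytidine analogue that traps DNA methyltransferases, and carboplatin forms platinum adducts on DNA.

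The labels of the single-drug arrays bear on which drug a value below belongs to, though not on its sign. Genes induced by p53, which respond to DNA damage, rose at least 1.5-fold for 23 of 24 names on the array labelled decitabine, for 13 with the carboplatin label and for 23 with the label of both drugs. Of all gene names 8.87 %, 2.11 % and 5.82 % rose. The median log2 changes of the p53 genes were 2.14, 0.62 and 1.89. Where 3 values follow each other without further naming, here and below, they are in that order of labels. Of the members described here, none passed 1.5-fold with the decitabine label. Arrays were kept as labelled, and whether the labels of the single-drug arrays were exchanged was not tested.

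Cancer-testis antigens are proteins made mainly in male germ cells and in some tumours. Most of their genes lie in families of near copies on the X chromosome, and in most somatic cells their promoters carry DNA methylation and are silent. Loss of that methylation is a known way to switch them on, and their proteins have been studied as targets of immunotherapy because healthy adult tissue outside the germ line makes little of them. By the array files, 50 of the 55 probes lie on X, 2 on chromosome 22, 2 on chromosome 21 and 1 elsewhere (GRCh37). Of 12 colon epithelial markers 10, 10 and 9 were well above background in treated cells, EPCAM, CDH1, KRT8, KRT18, KRT19 and CDX2 among them. Of all probes 65.2 %, 67.9 % and 67.9 % were so. CDX1 was so in no channel, KRT20 only on the array labelled decitabine, and CDH17 in treated cells only with the carboplatin label. Of 8 markers of blood, vessel and connective tissue cells, 4, 5 and 4 were well above background in control cells. For all probes this share was 68.5 %, 69.9 % and 67.7 %. The summed control signal of these markers was 1348 to 1544, of which ACTA2 gave 613 to 677. Of 7 germ cell markers, DAZL, DDX4, PRM2 and TNP1 were not well above background in any channel, ACR was in every channel, PRM1 was in every control channel and in treated cells with the carboplatin label, and SYCP3 was in treated cells with the carboplatin label and with both drugs. A rise in many cells and a larger rise in few cells cannot be told apart in such bulk RNA.

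The probes were 60 bases long, and a few are shown because what they can bind decides what was measured. MAGEA6, shown among them, did not rise 1.5-fold on any array. In each, CpG pairs are in capitals and coordinates are GRCh37. Only probes that read through in an open frame over their whole length were shown. Exon annotation of that build was not used here.

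GAGE7 probe, chrX:49218341-49218400 (plus strand): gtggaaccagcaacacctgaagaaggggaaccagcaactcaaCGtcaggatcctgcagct

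PRAME probe, chr22:22891002-22891061 (minus strand): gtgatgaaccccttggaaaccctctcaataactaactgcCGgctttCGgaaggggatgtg

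XAGE1A probe, chrX:52241141-52241200 (plus strand): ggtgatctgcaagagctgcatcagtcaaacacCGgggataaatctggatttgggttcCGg

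SSX2 probe, chrX:52787003-52787062 (plus strand): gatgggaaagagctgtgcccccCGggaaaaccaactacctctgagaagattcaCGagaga

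MAGEA6 probe, chrX:151870169-151870228 (plus strand): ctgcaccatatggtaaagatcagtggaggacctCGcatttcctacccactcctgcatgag

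Within families, 158 pairs of probes were compared base by base, and none were identical. The closest pair, from SSX2 and SSX5, had the same base at 44 of 60 positions. A probe can still bind RNA of near copies that have no probe of their own, so each value belongs to the probe and to the name the array gives it.

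On the array labelled decitabine, 0 of the 55 probes rose at least 1.5-fold, where 9.14 % of all probes did. Without the 9 columns of spots at the array edge that share was 3.98 %, with 0 members up as before. On the array labelled carboplatin 13 probes of 11 genes rose, 23.6 % of members where 2.01 % of all probes rose. With both drugs 11 probes of 10 genes rose, 20.0 % of members where 5.69 % of all probes rose. A rise is a ratio of treated over control of at least 1.5-fold after background correction with an added offset of 50 and loess, and the offset draws changes of dim probes towards 0. At 2-fold the counts were 0, 9 and 8, and the share of all probes past 2-fold is not given here. No member fell by 1.5-fold on any array, where 3.6 %, 1.13 % and 4.47 % of all probes did. These shares are not a like comparison, since a probe near background in control cells can hardly fall. In no control channel were 42 of the members well above background. The counts depended on normalization. With median centring in place of loess 34 members rose and 0 fell with the carboplatin label, and 10.3 % of all probes rose. With the scanner software's own log ratio 29 rose and 1 fell with both drugs, and 11.7 % of all probes rose.

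Every member that rose was well above background in treated cells by the scanner software's flag. In control cells, 5 of the 13 with the carboplatin label and 3 of the 11 with both drugs were. Treated cells were well above background for 6, 22 and 24 members, where 65.2 %, 67.9 % and 67.9 % of all probes were, and control cells for 9, 13 and 8, where 68.5 %, 69.9 % and 67.7 % were. Treated cells alone were well above background for 0, 11 and 16 members, where this held for 1.45 %, 0.768 % and 1.87 % of all probes. Control cells alone were so for 3, 2 and 0, where this held for 4.73 %, 2.67 % and 1.64 %. Neither channel was well above background for 46, 31 and 31 members. Over the 3 arrays, 42 members were not well above background in any control channel, 7 were in all of them, and 28 were not in any channel at all. For these counts and those of neither channel, the share of all probes is not given here. The median log2 change of the members was -0.01, 0.17 and 0.17, and their ranges were -0.32 to 0.34, -0.40 to 6.14 and -0.47 to 5.68. Most members stayed within 1.5-fold, and a small number made up the upper end.

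**Figure D1:**
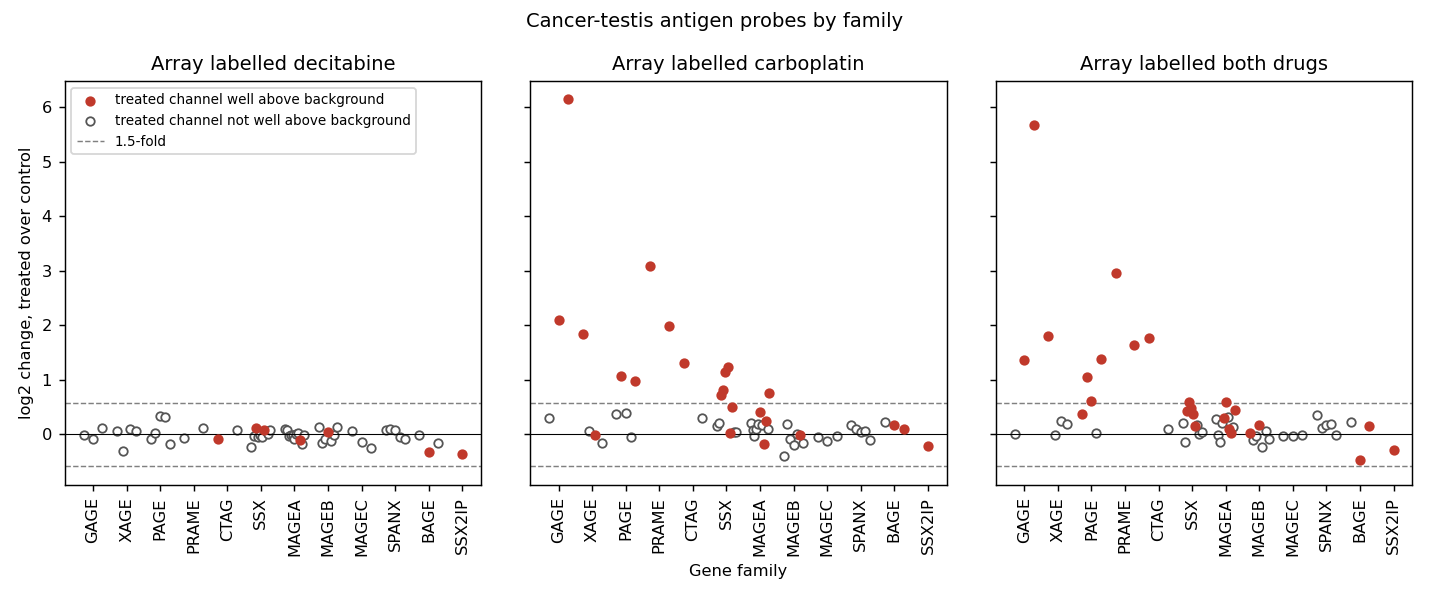
Log2 change of each member probe, treated over control, by gene family on the 3 arrays, with 1 point per probe and dashed lines at 1.5-fold. Filled points were well above background in treated cells. No point passes the lines on the array labelled decitabine, while GAGE7 stands at 6.14 and 5.68 on the others.

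GAGE genes encode short acidic antigens found on a wide range of tumours. GAGE7 rose more than any other of the array's probes on both arrays where it moved. Its treated signal was 65.6 on the array labelled decitabine, 8164 on that labelled carboplatin and 5450 on that labelled both drugs, in scanner units without background subtraction. Signals of the 2 channels are on different scales, with spot medians of 166, 163 and 167 in the treated and 297, 315 and 282 in the control channel, and loess evened this out before a change was taken. Its control signal was 87.0, 274 and 210, so the log2 changes were 0.11, 6.14 and 5.68. The treated channel of the first array lay near the median of the 153 negative control spots, 57.2, and the treated channels of the others lay far above it. The control channel was well above background only on the arrays where treated cells were bright, and how much of that signal came from the treated channel was not tested.

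GAGE3 moved the same way from a lower level. Its treated signals were 59.8, 203 and 140 and its control signals 87.1, 86.6 and 78.6, with log2 changes of -0.07, 2.10 and 1.37. Since no control channel was well above background, its ratio is only a limit, at least 3.72-fold on the array labelled carboplatin and at least 2.28-fold on that labelled both drugs. Such a limit sets the treated level against the higher of the probe's own control level and the lowest control level that was well above background on that array. Where the probe's own control level is the higher, the limit is the measured ratio itself. GAGE1 was not well above background in any channel, and its log2 changes were -0.01, 0.31 and 0.01.

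XAGE genes form a neighbouring family on X. XAGE1A gave treated signals of 57.2, 192 and 171 against control signals of 81.5, 92.9 and 75.9. Its log2 changes were 0.07, 1.83 and 1.80, with limits of at least 3.57-fold and at least 2.69-fold for the later pair. The control channel was not well above background on any array. XAGE2B and XAGE5 were not well above background in any channel, and XAGE3 was so only in treated cells of the array labelled carboplatin, at 71.9 with a log2 change of -0.01.

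PAGE genes share the sequence pattern of GAGE and XAGE, and 3 of their 5 probes rose on an array. PAGE2 gave treated signals of 74.3, 145 and 160 and control signals of 121, 124 and 125, with log2 changes of 0.03, 1.07 and 1.05. PAGE5 gave treated signals of 69.9, 147 and 177 and control signals of 115, 124 and 103, with log2 changes of -0.18, 0.99 and 1.39, the last a limit of at least 2.62-fold. Their control channels were steady across the arrays, and only the treated channels of the later pair were higher. PAGE2B was at the edge of the threshold, with log2 changes of 0.34, 0.39 and 0.61 and a limit of at least 1.25-fold on the array labelled both drugs. PAGE1 and PAGE4 did not reach 1.5-fold.

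PRAME, on chromosome 22, encodes a leucine-rich repeat protein known to oppose retinoic acid receptor signalling. It had 2 probes at different places in the gene. The first gave treated signals of 62.9, 404 and 356 and control signals of 89.5, 86.5 and 80.5, with log2 changes of -0.06, 3.09 and 2.95. Its limits were at least 7.79-fold on the array labelled carboplatin and at least 5.93-fold on that labelled both drugs, and the change ranked 3 and 34 among all probes. The second, whose sequence is given above, gave treated signals of 66.2, 222 and 180 and control signals of 85.3, 94.3 and 88.7, with log2 changes of 0.11, 2.00 and 1.64 and limits of at least 3.99-fold and at least 2.95-fold for the later pair. The 2 probes do not overlap, and each passed 1.5-fold on the arrays labelled carboplatin and both.

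CTAG1A belongs to the gene pair that encodes NY-ESO-1, an antigen used in T cell and vaccine studies. It was well above background in both channels of all arrays. Treated signals were 93.9, 223 and 284, control signals were 168, 167 and 137, and the log2 changes were -0.08, 1.31 and 1.78. CTAG2, which encodes the related LAGE-1 antigen, was not well above background in any channel and had log2 changes of 0.08, 0.31 and 0.10.

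**Figure D2:**
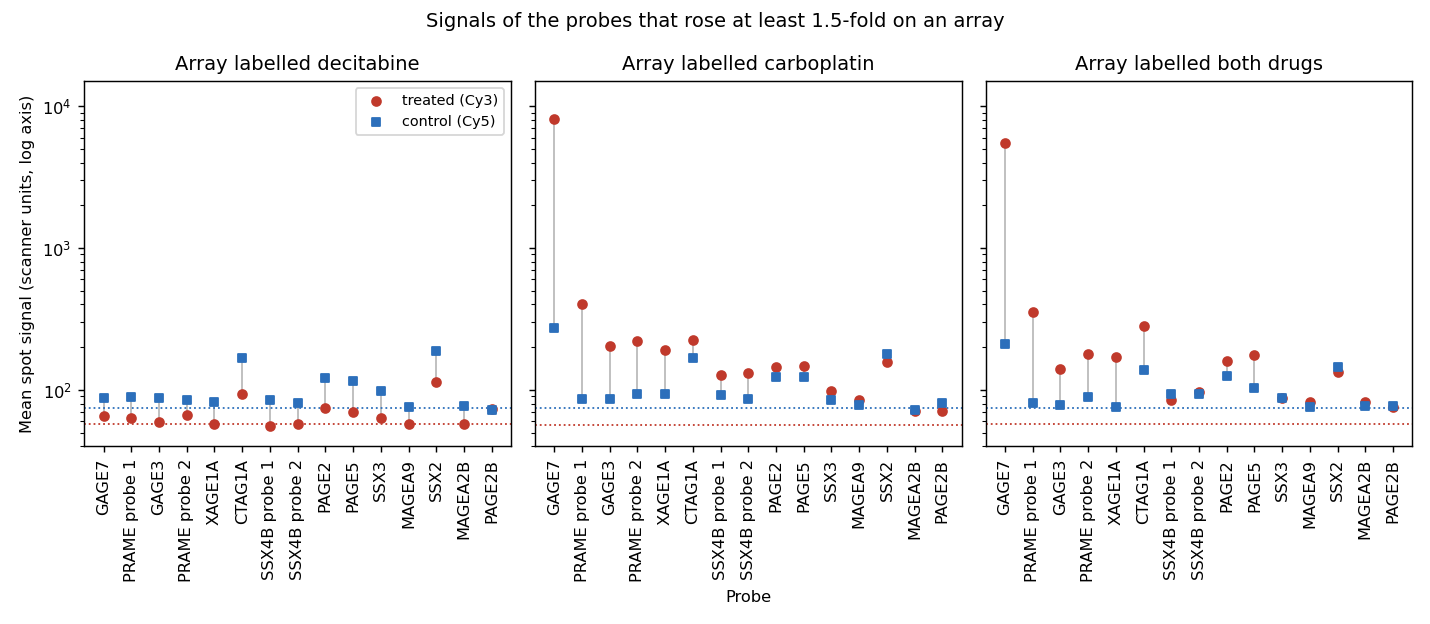
Mean spot signal of named member probes in treated and control cells on the 3 arrays, in scanner units on a log axis, with dotted lines at the median of the negative control spots of each channel. GAGE7 in treated cells is at 65.6, 8164 and 5450, and control signals of PRAME stay between 80.5 and 94.3.

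SSX genes encode nuclear proteins that act as repressors of transcription and that are fused to SS18 in synovial sarcoma. Of 10 probes of 8 genes, 4 probes of 3 genes rose on the array labelled carboplatin and 1 on that labelled both drugs. The 2 neighbouring SSX4B probes gave treated signals of 55.2, 127 and 84.9 and of 57.8, 131 and 96.5, with log2 changes of -0.04, 1.24 and 0.37 and of -0.01, 1.15 and 0.49. Neither had a control channel well above background, and their limits on the array labelled carboplatin were at least 2.33-fold and at least 2.21-fold. SSX3 gave treated signals of 63.0, 97.9 and 87.3 and log2 changes of -0.05, 0.81 and 0.59. No control channel of SSX3 was well above background, and its limits were at least 1.75-fold with the carboplatin label and at least 1.32-fold with both drugs. The SSX2 probe shown above was well above background in every channel, with treated signals of 113, 157 and 135, control signals of 188, 180 and 145 and log2 changes of 0.11, 0.73 and 0.44. The other SSX2 probe was not well above background in any channel and gives no usable ratio. SSX1, SSX5, SSX7, SSX8 and SSX9 did not reach 1.5-fold on any array, SSX7 coming nearest with 0.51 on the array labelled carboplatin.

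MAGEA genes, the family in which tumour antigens seen by T cells were first cloned, encode partners of E3 ubiquitin ligases. Of their 11 probes only MAGEA9 rose on the array labelled carboplatin and only MAGEA2B on that labelled both drugs. MAGEA9 gave treated signals of 57.6, 85.2 and 82.4 and log2 changes of -0.01, 0.76 and 0.44, at least 1.51-fold on the array labelled carboplatin. MAGEA2B gave treated signals of 57.2, 71.0 and 82.5 and log2 changes of -0.09, 0.41 and 0.59, with a limit of at least 1.25-fold on the array labelled both drugs. Both were close to the background level, and each passed 1.5-fold on 1 array.

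MAGEA6 was spotted 10 times on each array and so shows the error within an array. Its log2 change was -0.11 ± 0.08 (SD, n = 10 spots) on the array labelled decitabine, 0.24 ± 0.08 (n = 9) on that labelled carboplatin and 0.03 ± 0.08 (n = 7) on that labelled both drugs, after outlier spots were left out. Both channels were well above background on all arrays, with treated signals of 119, 146 and 123. Over the 264 probes spotted 10 times, the SD of the log2 change between spots was 0.230, 0.0751 and 0.0769, and without the 9 columns of spots at the array edge it was 0.0776, 0.0748 and 0.0757. Among those with a treated signal under 200, where most members lie, it was 0.12, 0.111 and 0.111. This is error between spots of 1 hybridisation and holds nothing of the spread between cultures.

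MAGEB, MAGEC, SPANX and BAGE, with 18 probes of 16 genes, did not rise on any array, where 9.14 %, 2.01 % and 5.69 % of all probes did. MAGEB4 was well above background only on the array labelled carboplatin and in both channels there, with treated signals of 51.7, 127 and 60.1, control signals of 78.0, 244 and 79.1 and log2 changes of -0.004, -0.01 and 0.06. The highest treated signal of MAGEC was 69.9, from MAGEC1, and that of SPANX 67.2, from SPANXA1, neither well above background. SPANX genes, whose proteins are found in late sperm cells, were not well above background in any channel. The brighter of 2 BAGE probes was an exception, with treated signals of 2259, 3074 and 1835, control signals of 6386, 6546 and 5170 and log2 changes of -0.32, 0.17 and -0.47. The files place it outside chromosomes X and 21, unlike the other BAGE probe, which was not well above background in any channel. SSX2IP, set apart above, gave log2 changes of -0.35, -0.21 and -0.29, with control signals of 375, 339 and 294.

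The array labelled both drugs was set beside that labelled carboplatin for the 15 probes, of 13 genes, that rose on either. Their control RNA may have been the same, which the sources used here do not state. The array labelled both drugs minus that labelled carboplatin had a median of -0.22 on the log2 scale, with 11 probes lower and 4 higher and a range of -0.87 to 0.47. SSX4B differed by -0.87 and -0.66 and GAGE3 by -0.73, but their control channels were not well above background, and the treated levels alone differed by -0.67 and -0.46 for SSX4B and by -0.53 for GAGE3. GAGE7, measured in both channels, differed by -0.47, and by -0.62 in the treated level. CTAG1A, at 0.47, PAGE5, at 0.40, PAGE2B, at 0.22, and MAGEA2B, at 0.18, were higher with both drugs. In the treated level they were higher by 0.33, 0.33, 0.11 and 0.20, in the order named. The control channels of PAGE5, PAGE2B and MAGEA2B were not well above background on the array labelled both drugs. PAGE2, lower with a difference of -0.02, was higher by 0.11 in the treated level. For scale, repeated spots gave an SD of 0.108 for a difference in log2 change between these arrays, and of 0.157 among those with a treated signal under 200. With 1 array of each, these differences were not tested.

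**Figure D3:**
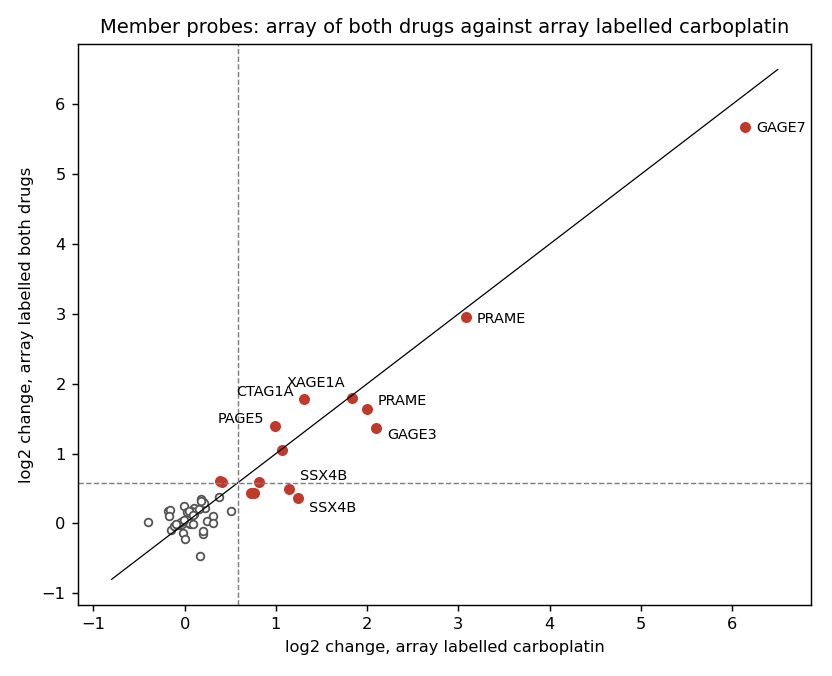
Log2 change of each member probe on the array labelled both drugs against that on the array labelled carboplatin, with the line of equal change and dashed lines at 1.5-fold. Filled points rose on at least 1 of these arrays, and 11 of the 15 lie below the line, some over control channels not well above background.

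The families do not form 1 block on X. Probes of GAGE, XAGE, PAGE and SSX lie between positions 48049580 and 55250443 (GRCh37), where 9 of 22 members, 40.9 %, rose on the array labelled carboplatin and 7 of 22, 31.8 %, on that labelled both drugs. Among the 130 other probes in that stretch 1.54 % and 3.08 % rose. MAGEA and CTAG lie between 148798090 and 153880690, where 2 of 13 members rose on each of these arrays, beside 7.32 % and 12.2 % of 123 other probes. MAGEB, nearer the tip of the short arm, and MAGEC with SPANX, on the long arm, had no member that rose.

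Promoters were examined because DNA methylation acts at CpG pairs, although methylation itself was not measured on these arrays. Windows of 300 bases, from 250 before to 50 after a start, came from RefSeq (GRCh38.p14). A symbol matched for 46 of the 49 genes, and 38 had a window. The 10 genes with a window that rose on an array held 10 to 17 CpG pairs in the window with the most, with a median of 12.5. The 28 that did not rise held 2 to 21, with a median of 10, and 13 of these, 46.4 %, were under 10. That limit equals the lowest count among the genes that rose, so none of those could be under it, and no contrast is drawn from it. Over all 35116 windows the median was 14, and 43.6 % were under 10. These count every window of a gene and not only that with the most, so they are not a like comparison. GAGE3, CTAG1A and SSX3 rose and had no window, and PRAME and SSX2 also had windows under 10, with 4 and 8 CpG pairs.

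**Figure D4:**
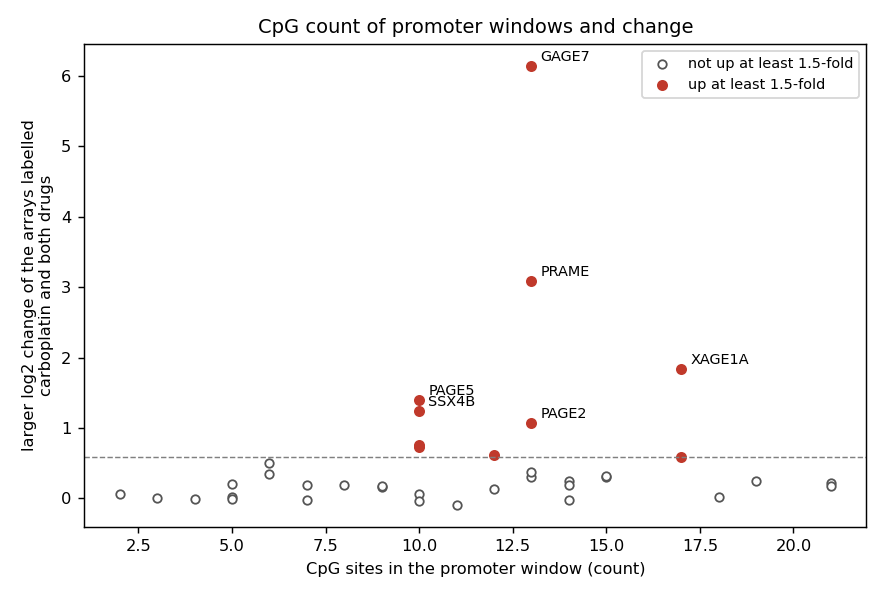
Number of CpG pairs in the RefSeq promoter window of each member gene against its log2 change, for the carboplatin label and for both drugs. The 10 genes with a window that rose on an array have 10 to 17 CpG pairs in the window with the most. Genes with 2 to 9 did not reach 1.5-fold, SSX7 coming nearest at 0.51, but that range was set by the lowest count among the genes that rose.

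The windows of the leading genes are shown 5′ to 3′ with CpG pairs in capitals, beside MAGEB4, which has few. GAGE7 is a synonym of GAGE12F in RefSeq, and 7 other GAGE windows are identical to that of GAGE12F. Among them is a window of GAGE1, a member that did not rise on any array and was not well above background in any channel.

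GAGE12F promoter, chrX:49560592-49560891 (plus strand): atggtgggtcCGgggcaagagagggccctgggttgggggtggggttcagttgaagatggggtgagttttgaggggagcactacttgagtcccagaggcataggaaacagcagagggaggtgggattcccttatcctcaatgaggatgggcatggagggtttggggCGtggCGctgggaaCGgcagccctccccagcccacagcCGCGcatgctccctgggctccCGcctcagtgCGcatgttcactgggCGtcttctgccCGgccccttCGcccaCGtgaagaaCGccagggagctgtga

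XAGE1A promoter, chrX:52495627-52495926 (plus strand): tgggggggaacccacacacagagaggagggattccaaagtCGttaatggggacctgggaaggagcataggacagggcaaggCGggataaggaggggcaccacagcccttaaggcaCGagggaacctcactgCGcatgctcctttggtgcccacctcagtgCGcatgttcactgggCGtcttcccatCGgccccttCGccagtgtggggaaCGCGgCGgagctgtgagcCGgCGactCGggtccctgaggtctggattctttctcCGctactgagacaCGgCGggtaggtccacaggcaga

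PAGE5 promoter, chrX:55220096-55220395 (plus strand): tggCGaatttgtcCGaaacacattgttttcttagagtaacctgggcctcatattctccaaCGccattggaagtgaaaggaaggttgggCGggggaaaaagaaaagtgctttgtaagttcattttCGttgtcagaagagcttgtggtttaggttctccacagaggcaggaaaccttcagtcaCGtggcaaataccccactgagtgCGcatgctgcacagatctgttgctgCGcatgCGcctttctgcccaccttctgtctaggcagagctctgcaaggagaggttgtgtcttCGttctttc

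PRAME promoter, chr22:22559216-22559515 (minus strand): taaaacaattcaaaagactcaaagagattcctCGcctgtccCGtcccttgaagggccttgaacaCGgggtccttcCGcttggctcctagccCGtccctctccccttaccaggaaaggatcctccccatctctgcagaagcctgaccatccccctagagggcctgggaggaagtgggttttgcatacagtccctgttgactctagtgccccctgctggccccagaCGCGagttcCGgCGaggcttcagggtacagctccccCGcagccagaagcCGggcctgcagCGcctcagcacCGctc

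MAGEB4 promoter, chrX:30241750-30242049 (plus strand): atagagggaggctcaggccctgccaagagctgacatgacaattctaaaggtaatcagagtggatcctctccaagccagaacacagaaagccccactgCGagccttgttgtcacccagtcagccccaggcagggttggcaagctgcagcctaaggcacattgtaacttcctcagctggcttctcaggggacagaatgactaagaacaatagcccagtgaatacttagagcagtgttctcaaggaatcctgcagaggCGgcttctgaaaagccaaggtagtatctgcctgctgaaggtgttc

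GAGE12F and XAGE1A share the unbroken run cctcagtgCGcatgttcactgggCGtcttc, and GAGE12F and PAGE5 share agtgCGcatg. The letters TGCGCATG, or CATGCGCA on the other strand, a search chosen after these windows had been read, were in 9 of the 11 GAGE, XAGE and PAGE genes with a window and in 0 of the 27 other members, beside 2.18 % of all windows. Of the 10 genes that rose 5 held them, as did 4 of the 28 that did not. CCGGAA, or TTCCGG on the other strand, the core letters bound by ETS factors, was in 1 of 10 and 2 of 28 genes, beside 17.2 % of all windows. For both searches a gene counted if any of its windows held the letters, while the shares of all windows count each window separately.

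Related genes outside the rule were read the same way, with 1 probe for each gene name. Of 62 further germline genes, 2, 4 and 6 rose, where 8.87 %, 2.11 % and 5.82 % of all gene names did. None fell, where 4.08 %, 1.35 % and 4.92 % of all gene names did, but only 17, 21 and 15 were well above background in control cells. Their medians were -0.01, 0.05 and 0.09. SOHLH1, a transcription factor of early germ cells, gave log2 changes of 0.07, 1.09 and 1.87, and CT45A5, of another X-linked antigen family, gave 0.18, 0.56 and 1.20. SYCP3, a part of the meiotic chromosome axis, gave -0.21, 0.64 and 0.39 and was the 1 germ cell marker to pass 1.5-fold. AKAP3, which anchors protein kinase A in the sperm tail, gave 0.59, -0.10 and -0.05. Of 11 MAGE genes that are expressed in many somatic tissues, none rose or fell on any array, and MAGED1, with control signals of 39487, 37930 and 33507, gave -0.40, -0.11 and -0.28.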

How the data were processed

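Per the labels, RNA of treated (Cy3) and control (Cy5) YB5 cells was hybridised to Agilent whole human genome arrays. The deposited intensity values are the authors' scanner output of Agilent Feature Extraction, version 9.5.3.1 in the file headers and 8.5.1.1 in the labels. The log10 ratio in the deposited files is red over green after that software's own correction, and the authors' deposited log2 ratios were loess normalized with limma, per the labels in R 3.0.2. They correlated with the scanner values of their own array at r = 0.79, 0.68 and 0.80, over probes. Their columns have medians of -0.01, 0 and -0.01, and their background step is not given in the sources used here.

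Here, mean intensities were corrected by normexp (offset 50), normalized by loess with limma 3.58.1 in R 4.3.3, and turned to log2 of treated over control. Outlier spots were dropped (276, 111 and 89 of 43376) and spots of a probe averaged. Channel levels for limits were scaled by Aquantile. A probe was well above background if at least 0.5 of its spots carried the flag. Promoters and figures used Python 3.11.15. With 1 array per treatment no test was made, and precision is limited by that number.

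Values were given for members that rose at least 1.5-fold with a treated channel well above background, the brightest probe of each family, PRAME and the CTAG genes, and any member that fell. The members and lists were chosen with earlier results of these data known. Alternatives were the scanner log ratio, no background subtraction, an offset of 16, median centring, leaving out 9 edge columns, the deposited log2 ratios, keeping outlier spots, and a 2-fold threshold. The values of 1 gene of the further germline list are not reported here.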

Additional observations from a re-analysis of the deposited data

How the results depend on the processing

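The main counts of members up were 0, 13 and 11, and of members down 0, 0 and 0, with the labels decitabine, carboplatin and both drugs, the order kept below. With the scanner software's log ratio, 5, 24 and 29 rose and 2, 3 and 1 fell, where 11.3 %, 7.35 % and 11.7 % of all probes rose (9.14 %, 2.01 % and 5.69 % in the main analysis). With a normexp offset of 16, 2, 18 and 19 rose, and 1, 1 and 0 fell, where 11.3 %, 3.14 % and 7.38 % of all probes rose. With median centring, 3, 34 and 18 rose and 1, 0 and 1 fell, where 9.41 %, 10.3 % and 3.70 % of all probes rose. With the authors' deposited log2 ratios, 0, 14 and 11 rose and 1, 0 and 1 fell, where 5.59 %, 3.22 % and 6.36 % of all probes rose. Without background subtraction 0, 13 and 9 rose, where 10.4 %, 2.07 % and 5.65 % of all probes rose. Without the edge columns 0, 13 and 10 of 53 probes rose, where 3.98 %, 1.99 % and 5.62 % of all probes rose. The cause of these differences was not tested.

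The 24 changes of members that rose were recomputed in 167 pairs of value and setting, all with the same sign, and 21 stayed at least 1.5-fold in every setting. PAGE2B, SSX3 and MAGEA2B, all on the array labelled both drugs, were under it in at least 1 setting. GAGE7 ranged from 5.72 to 6.67 on the array labelled carboplatin and from 5.29 to 6.34 on that labelled both drugs, and GAGE3 reached 5.16 on the former with the scanner log ratio. Most members lie near the background of the scanner, where the offset sets the size of a ratio. No paired analysis was possible because each treatment had 1 array, and for the same reason no replicate could be left out.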

Other observations

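Among the further germline genes, POTEB, CT45A1, PLAC1 and TKTL1 also rose on the array labelled both drugs. POTEB, well above background in every channel, gave treated signals of 351, 567 and 944 and control signals of 692, 772 and 697, with log2 changes of 0.13, 0.68 and 1.39. PLAC1 gave log2 changes of 0.07, 0.71 and 0.91, CT45A1 gave -0.05, 0.24 and 0.86, and TKTL1 gave -0.01, 0.24 and 0.88.

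On the array labelled carboplatin the brightest negative control spot read 141 in treated and 249 in control cells, while the medians of these spots were 56.3 and 74.4. MAGEB4 read 127 and 244 on that array, and a relation between these spots was not tested.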
